A study of Gallus gallus with 24 samples.

Results

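The right gonad of the female chicken embryo was compared between embryonic day (E) 9.5 and E5, across all genes. The comparison rests on 6 of the 24 libraries of the series, 3 from right gonads at E9.5 and 3 from right gonads at E5, chosen by their labelled side and stage. Both groups are right gonads of female Leghorn embryos, from which poly(A) RNA was sequenced, and the labels name no treatment or transgene for either. By the labels they differ in stage alone, with no word on whether a library is 1 embryo, a pool or a repeated preparation. P-values here speak only of the variation among these libraries, part of which may be technical. The other 18 libraries (right gonads at E6.5 and E8, left gonads at the 4 stages, 3 each) entered the fit, which gave all groups 1 estimate of the spread. The left gonads at E9.5 and E5 also served to test whether a change differed between the sides.

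In female birds the left gonad grows into the ovary while the right gonad starts to form in the same way and then regresses. Both begin as a bipotential ridge on the mesonephros, the embryonic kidney, made of a surface epithelium, supporting and steroid-making somatic cells and the germ cells that have migrated in. In the female, the transcription factor FOXL2 and the enzyme aromatase (CYP19A1), which makes oestrogen from androgen, mark the turn to the ovarian course. DMRT1, AMH and SOX9 belong to the testis course in males, and the cortex that later houses the meiotic germ cells forms on the left side.

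Libraries of the right gonad held between 15078282 and 19970859 counts at E9.5 and E5, where the lowest total was E5 right replicate 3 and the highest E9.5 right replicate 2. Levels are given as CPM, counts scaled to a TMM-adjusted library total of 1e+06, and fold changes are E9.5 over E5 with their standard error (SE). Genes were tested with edgeR's quasi-likelihood test and called at a Benjamini-Hochberg adjusted p under 0.05, adjusted over all 16694 genes. As labelled for gonads, all 6 libraries held the germ cell genes DDX4 and DAZL and the gonadal somatic factors NR5A1, GATA4 and WT1; the lowest DDX4 level was 10.6 CPM and the lowest NR5A1 level 19.5 CPM, both at E5. They also held mesonephros transcripts in unequal amounts. The 22 genes of a mesonephros list that are in the table summed to 958, 4485 and 2145 CPM in the E9.5 right libraries, against 994, 1223 and 229 CPM in the E5 right libraries, with no member at 0 throughout either group. Libraries of E9.5 replicates 2 and 3 thus stood above all others and E5 replicate 3 below all others. For this reason the values of E9.5 replicate 1 and of E5 replicates 1 and 2, which are alike in that sum, are also given apart where they end a call; this alternative was chosen after the levels were seen.

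Between E5 and E9.5 the right gonad changed widely. Of 16694 genes tested, 6267 were called (37.5%), 3583 higher at E9.5 (21.5%) and 2684 lower (16.1%). Most called genes moved little: 3622 of them (57.8%) changed by under 2-fold. Among the larger changes rises outnumbered falls, with 1776 genes at least 2-fold higher and 869 at least 2-fold lower. At a log2 change of at least 3 there were 370 rises and 77 falls. The libraries of the 2 stages did not overlap for 7213 of the tested genes (43.2%), so a lack of overlap in 1 gene is common here. The median log2 change over all genes was 0.03. In bulk RNA, fewer cells of a type and less RNA per cell cannot be told apart, and this holds for every gene below. With only E9.5 replicate 1 and E5 replicates 1 and 2 of the right gonad kept, 3331 genes were called, 1948 higher and 1383 lower.

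**Figure D1:**
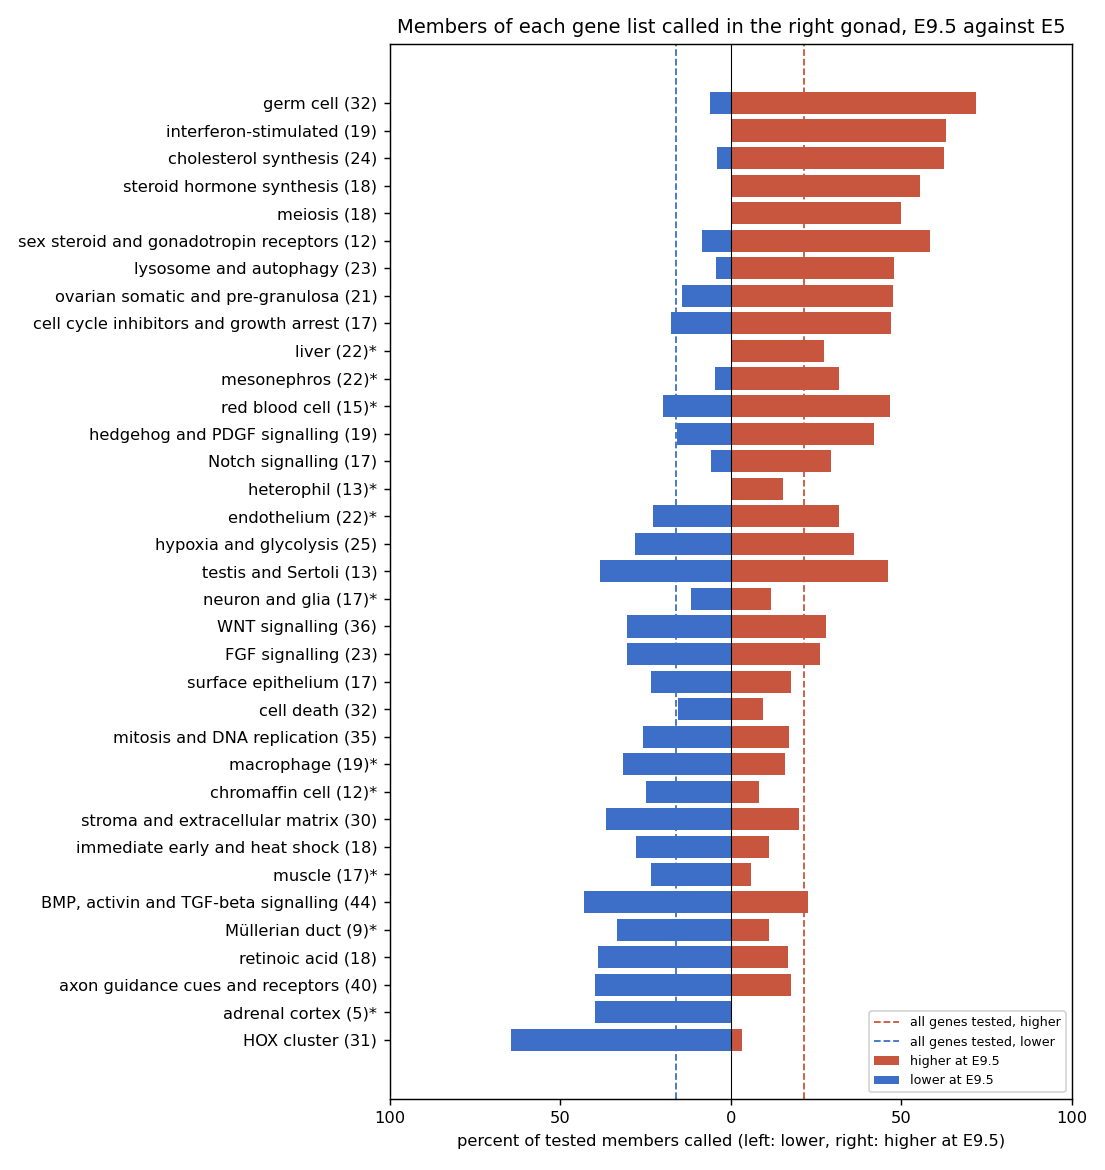
Share of the tested members of each gene list called lower (to the left) or higher (to the right) at E9.5 than at E5 in the right gonad, in percent, with the number tested in brackets and lists of other tissues marked *. Dashed lines mark the shares over all genes, 21.5% higher and 16.1% lower; the germ cell list reaches farthest to the right with 23 of 32 members and the HOX list farthest to the left with 20 of 31.

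The largest rise was that of aromatase. CYP19A1 stood at 2741, 2537 and 3292 CPM in the E9.5 right libraries, against 0, 0.592 and 1.05 CPM in the E5 right libraries (log2 fold change 12.33 ± 0.58, adjusted p = 5.49e-12). It was thus near absent at E5 in all 3 libraries and abundant at E9.5 in all 3. CYP17A1, which turns progestogens into androgens, followed the same course with 1729.5, 1637 and 3075 CPM at E9.5, against 4.46, 4.44 and 5.18 CPM at E5 (log2 fold change 8.84 ± 0.33, adjusted p = 2.93e-13). ZP3, a glycoprotein of the egg coat, had 113, 78.6 and 105 CPM at E9.5, against 0.0647, 0.474 and 0.328 CPM at E5 (log2 fold change 8.36 ± 0.53, adjusted p = 3.05e-10). GRP, the gastrin-releasing peptide, had 33.1, 18.7 and 33.9 CPM at E9.5, against 0.0647, 0 and 0.0656 CPM at E5. Its 2 counts over the E5 group put the ratio of E9.5 to E5 at 664, with a 95% counting interval (exact binomial, counting error alone) of 183 to 5486. MYOZ2, a protein of the muscle Z-disc, likewise had 2 counts at E5 and a ratio of 266 (interval 73.2 to 2200.1). SLCO1A2, an organic anion transporter, rose with a log2 fold change of 7.48 (adjusted p = 1.35e-09).

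Among the 12 largest rises, 3 genes had no count in any E5 right library, so only a lower bound can be given, set against 3 counts over the E5 group (0.063 CPM). CTSEAL, named as a cathepsin E-A-like gene, was at 4.5, 3.24 and 5.03 CPM at E9.5, at least 66.3-fold higher. SLC30A8, a zinc transporter, was at 5.96, 2.92 and 3.01 CPM at E9.5, at least 61.9-fold higher. ASPDH was at 1.58, 9.97 and 3.33 CPM at E9.5, at least 84.3-fold higher. ASPDH, K123 and SPIA1 were highest in E9.5 replicate 2, then replicate 3, the order of the mesonephros sums. K123 had 10.1, 138 and 19.1 CPM at E9.5, against 0.129, 0.296 and 0.262 CPM at E5, and its log2 fold change was 7.87 (adjusted p = 0.000507), 4.60 (adjusted p = 0.00685) with the mesonephros score added as a covariate, 6.98 (adjusted p = 0.0668) by limma-voom and 5.50 (adjusted p = 0.0503) with the 3 right libraries alike in mesonephros level. SPIA1 had 8.24, 37.1 and 21.96 CPM at E9.5, against 0.0647, 0.118 and 0.131 CPM at E5 (log2 fold change 7.64 ± 1.48, adjusted p = 0.0004). UMOD, the kidney tubule protein uromodulin, did not share that order, with 72.8, 59.1 and 75.2 CPM at E9.5, against 0.259, 0.118 and 0.459 CPM at E5 (log2 fold change 7.94 ± 0.40, adjusted p = 1.2e-11). The part of mesonephros in these rises was not tested.

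The 12 largest falls included 3 embryonic globins, described with the blood genes, and the transcription factors HAND1, SOX9 and TBX18. HAND1, a transcription factor of lateral mesoderm, was at 0.444, 0.0522 and 0.523 CPM in the E9.5 right libraries, against 31.6, 22.1 and 25.6 CPM in the E5 right libraries (log2 fold change -6.31 ± 0.65, adjusted p = 2.21e-07). TBX18, a T-box factor of the urogenital mesenchyme and surface epithelium, had 9.51, 5.53 and 6.86 CPM at E9.5, against 121, 95.3 and 104 CPM at E5 (log2 fold change -3.87 ± 0.21, adjusted p = 2.63e-11). SOX9, the Sertoli cell factor, had 0.444, 1.2 and 0.915 CPM at E9.5, against 26.9, 8.11 and 16.3 CPM at E5 (log2 fold change -4.30 ± 0.49, adjusted p = 9.13e-07). No overlap between the E9.5 and the E5 libraries was a condition for naming the 12 falls, so each of these met it by choice. The serotonin receptor HTR2A fell with a log2 fold change of -4.37 (adjusted p = 4.68e-06), and the adhesion receptor ADGRD2 with -4.39 (adjusted p = 2.33e-10). CBLN2, a secreted synapse organiser, fell to 4.45 ± 0.838 CPM at E9.5, against 72.7 ± 18.3 CPM at E5 (log2 fold change -4.02, adjusted p = 6.55e-06). COL9A3, a chain of cartilage collagen IX, fell with -4.04 (adjusted p = 1.01e-05) and ANGPTL5 with -4.09 (adjusted p = 2.35e-06). The collagenase MMP1 fell with -3.92 (adjusted p = 0.000701); with the 3 right libraries alike in mesonephros level its value was -2.90 (adjusted p = 0.0789).

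Genes of each step from cholesterol to oestrogen rose. Of 18 tested genes of the list, 10 were higher at E9.5, none was lower, and the median log2 change was 1.10, beside 0.03 over all genes; 55.6% were called against 37.5% of all genes. STAR, which brings cholesterol into mitochondria, had 566, 261 and 512 CPM at E9.5, against 7.89, 10.8 and 10.3 CPM at E5 (log2 fold change 5.53 ± 0.36, adjusted p = 4.09e-10). CYP11A1, which cuts the cholesterol side chain, had 281, 279.9 and 617 CPM at E9.5, against 1.29, 8.64 and 6.82 CPM at E5 (log2 fold change 6.13 ± 0.52, adjusted p = 1.49e-08). HSD3B1, the next enzyme, had 589.6, 358 and 467 CPM at E9.5, against 4.46, 15.2 and 18.6 CPM at E5 (log2 fold change 5.21 ± 0.42, adjusted p = 6.95e-09). HSD17B1, which makes oestradiol from oestrone, had 98.6, 129 and 183 CPM at E9.5, against 2.13, 1.78 and 2.23 CPM at E5 (log2 fold change 6.06 ± 0.25, adjusted p = 7.53e-13). All E9.5 libraries lay above all E5 libraries in each of the 6 genes from STAR to CYP19A1. For CYP17A1 and CYP19A1, named among the largest rises, this was a condition of the choice. Over the list 11 of 18 genes had no overlap, beside 43.2% of all genes. Among the others, the electron donor POR rose with a log2 fold change of 1.39 (adjusted p = 8.97e-09), HSD17B4 with 1.34 (adjusted p = 0.00304), AKR1D1 with 1.04 (adjusted p = 1.55e-05) and FDXR with 0.45 (adjusted p = 0.0185). The 8 members not called included HSD17B3 at -0.83 (adjusted p = 0.215) and the cholesterol transporter TSPO at 0.10 (adjusted p = 0.426). Leaving out each of the 6 right libraries in turn left 9 to 10 members higher. The call lost was that of FDXR, without E5 right replicates 1 or 2 or E9.5 right replicates 2 or 3 (adjusted p = 0.0684 to 0.127).

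**Figure D2:**
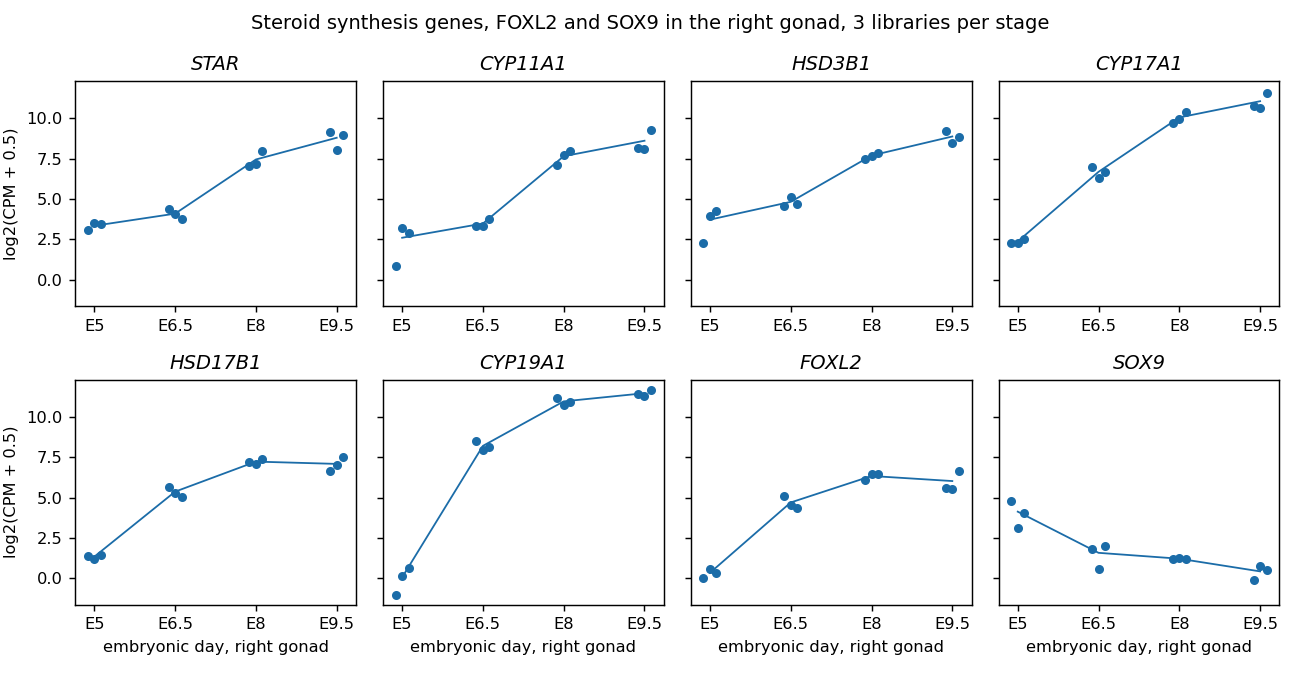
Levels of 6 steroid synthesis genes, FOXL2 and SOX9 in the right gonad at E5, E6.5, E8 and E9.5, as log2(CPM + 0.5), with a point per library and a line through the means of 3 libraries. On this log2 scale CYP19A1, HSD17B1 and FOXL2 climb mostly by E6.5, STAR and CYP11A1 mostly after E6.5, and SOX9 is lowest at E9.5.

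The chain did not rise in step. CYP19A1 averaged 0.547 CPM at E5, 297 CPM at E6.5, 2012 CPM at E8 and 2857 CPM at E9.5, and CYP17A1 4.69 CPM at E5, 103 CPM at E6.5, 1069 CPM at E8 and 2147 CPM at E9.5. FOXL2 had reached 76.7% of its log2 difference (on log2(CPM + 0.5)) by E6.5 and HSD17B1 70.1%, while CYP11A1 had reached 14.7% and STAR 13.8%. STAR averaged 9.67 CPM at E5, 16.6 CPM at E6.5, 175 CPM at E8 and 446 CPM at E9.5. HSD17B1 was at 137 ± 42.6 CPM at E9.5, against 151 ± 18.98 CPM at E8. These positions are a description of group means and were not tested against each other.

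Genes that make the cholesterol substrate rose too, most of them by less. Of 24 tested members of the cholesterol list, 15 were higher and 1 was lower, with a median log2 change of 0.47. The share called was 66.7%, against 37.5% of all genes. FDFT1, squalene synthase, had 141, 141 and 175 CPM at E9.5, against 72.6, 66.5 and 62.00 CPM at E5 (log2 fold change 1.18 ± 0.12, adjusted p = 1.38e-07). MSMO1 rose with 1.14 (adjusted p = 2.98e-06) and ACAT2 with 1.15 (adjusted p = 4.3e-07). Without any 1 of the 6 right libraries, 10 to 12 members were higher.

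Several hormone receptors rose. Of 12 tested receptor genes, 7 were higher and 1 was lower (66.7% called, against 37.5% of all genes), and the median was 0.79. Whichever right library was left out, 7 of these genes were higher. FSHR, the receptor of follicle-stimulating hormone, had 146, 110.2 and 132 CPM at E9.5, against 0.841, 2.49 and 2.03 CPM at E5 (log2 fold change 6.16 ± 0.30, adjusted p = 7.44e-12). LHCGR, the receptor of luteinising hormone, had 153, 78.5 and 175 CPM at E9.5, against 7.11, 6.39 and 7.41 CPM at E5 (log2 fold change 4.28 ± 0.28, adjusted p = 3.49e-10). Both receptors were low in every E5 library and higher in every E9.5 library. Over the list 10 of 12 genes had no overlap, beside 43.2% of all genes. The prolactin receptor PRLR rose with a log2 fold change of 3.12 (adjusted p = 6.89e-07) and the progesterone receptor PGR with 0.75 (adjusted p = 0.000728). GPER1, a membrane oestrogen receptor, fell to 1.92 ± 0.605 CPM at E9.5, against 5.79 ± 1.09 CPM at E5 (log2 fold change -1.59, adjusted p = 0.000104), and had -1.0 (adjusted p = 0.0829) with the 3 right libraries alike in mesonephros level. The nuclear oestrogen receptor ESR1 was not called between the 2 stages, with 27.2, 18.3 and 21.3 CPM at E9.5, against 10.1, 17.6 and 14.3 CPM at E5 (log2 fold change 0.67 ± 0.31, adjusted p = 0.0965). Its mean was 13.99 CPM at E5, 84.6 CPM at E6.5, 28.7 CPM at E8 and 22.3 CPM at E9.5, so it was highest at E6.5 in between. With the red blood cell score as a covariate it was called, at 0.95 (adjusted p = 0.0349).

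Ovarian and supporting cell genes rose in part. Of 21 tested members of the ovarian somatic list, 10 were higher and 3 lower, with a median log2 change of 0.58. The share called was 61.9%, against 37.5% of all genes. CYP19A1 and FOXL2 are also counted here. FOXL2 had 48.1, 46.8 and 100.3 CPM at E9.5, against 0.517, 1.01 and 0.787 CPM at E5 (log2 fold change 6.38 ± 0.38, adjusted p = 1.23e-10), with E9.5 replicate 3 above the other 2 E9.5 libraries and all E5 libraries far below. NR5A1, the steroidogenic factor, had 114, 90.5 and 209 CPM at E9.5, against 19.5, 24.6 and 33.3 CPM at E5 (log2 fold change 2.42 ± 0.26, adjusted p = 5.04e-07) and was also highest in E9.5 replicate 3. The inhibin and activin subunits INHA, INHBB and INHBA rose with log2 fold changes of 2.58 (adjusted p = 0.000907), 2.39 (adjusted p = 4.72e-07) and 2.24 (adjusted p = 0.000718). BMP2, the nuclear receptor NR0B1, the activin-binding protein follistatin (FST) and the homeobox factor IRX3 rose too, with 1.92 (adjusted p = 2.17e-10), 1.88 (adjusted p = 3.59e-09), 1.71 (adjusted p = 3.91e-07) and 0.96 (adjusted p = 0.00748). WNT4 and RSPO1, which act in the ovarian WNT pathway, were not called: WNT4 averaged 15.2 ± 4.1 CPM in E9.5 right gonads and 17.04 ± 5.2 CPM in E5 right gonads, and RSPO1 7.04 ± 1.16 CPM in E9.5 right gonads and 7.15 ± 2.7 CPM in E5 right gonads, with log2 fold changes of -0.17 (adjusted p = 0.612) and -0.02 (adjusted p = 0.968). The 3 that fell were the early gonadal homeobox factors LHX9 at -1.62 (adjusted p = 6.54e-07) and EMX2 at -0.91 (adjusted p = 1.36e-05), and AMHR2, the receptor of AMH, at -0.61 (adjusted p = 0.00388). Lost calls were IRX3 without E5 right replicate 1 or E9.5 right replicate 3 (adjusted p = 0.0581 to 0.0753).

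Genes of the testis list went both ways, 6 higher and 5 lower of 13 tested (84.6% called, against 37.5% of all genes). AMH, the anti-Müllerian hormone, which is also made by the female gonad in birds, had 66.4, 90.8 and 97.6 CPM at E9.5, against 2.84, 3.43 and 3.87 CPM at E5 (log2 fold change 4.65 ± 0.39, adjusted p = 1.56e-08), with a higher mean of 238 ± 101 CPM at E8. PTGDS, prostaglandin D synthase, had 60.4, 118 and 104 CPM at E9.5, against 2.97, 2.31 and 1.97 CPM at E5 (log2 fold change 5.28 ± 0.76, adjusted p = 1.68e-05). DMRT1 had 15.4, 18.3 and 29.9 CPM at E9.5, against 8.66, 15.3 and 12.1 CPM at E5 (log2 fold change 0.81 ± 0.25, adjusted p = 0.0161). Its rise was small and lost its call without E5 right replicate 1, 0.56 (adjusted p = 0.124), E5 right replicate 3, 0.77 (adjusted p = 0.056), or E9.5 right replicate 3, 0.46 (adjusted p = 0.159). The DMRT1 call was also lost in the fits on the 6 libraries compared and on the 12 right libraries. HEMGN rose with 1.96 (adjusted p = 9.12e-05) and stands in the red blood cell list as well. Beside SOX9, the growth factors GDNF and FGF9 fell with -2.64 (adjusted p = 1.28e-06) and -1.11 (adjusted p = 0.00182), and SOX8 with -1.73 (adjusted p = 0.00818). SOX9 averaged 17.1 CPM at E5, 2.5 CPM at E6.5, 1.83 CPM at E8 and 0.853 CPM at E9.5 in the right gonad.

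Germ cell transcripts gained in share. Of 32 tested germ cell genes, 23 were higher and 2 lower, with a median log2 change of 1.11, and 78.1% were called against 37.5% of all genes. The list summed to 931, 825 and 876 CPM in the E9.5 right libraries, against 458, 563 and 393 CPM in the E5 right libraries, so the groups did not overlap. DDX4, the vasa helicase, had 52.9, 55.1 and 46.3 CPM at E9.5, against 15.6, 22.8 and 10.6 CPM at E5 (log2 fold change 1.65 ± 0.23, adjusted p = 1.31e-05). DAZL, an RNA-binding protein of germ cells, had 121, 112 and 87.4 CPM at E9.5, against 51.1, 71.3 and 37.2 CPM at E5 (log2 fold change 1.0 ± 0.25, adjusted p = 0.00352) and 0.98 (adjusted p = 0.0549) with the 3 right libraries alike in mesonephros level. Among the E5 libraries, replicate 2 was highest in both genes. Genes of the germ granule and the piRNA pathway were among the called: RNF17 rose with 2.56 (adjusted p = 1.34e-06), TDRD15 with 2.12 (adjusted p = 6.55e-07), ASZ1 with 1.99 (adjusted p = 1.07e-06), PIWIL1 with 1.89 (adjusted p = 4.72e-07) and TDRD9 with 1.74 (adjusted p = 2.95e-05). The factor DMRTB1 rose with 2.30 (adjusted p = 9.16e-07). NANOG and KIT, which mark early germ cells, rose with 1.28 (adjusted p = 0.00194) and 1.39 (adjusted p = 0.000133). The 2 that fell were the RNA-binding proteins LIN28A at -1.25 (adjusted p = 0.00232) and LIN28B at -2.28 (adjusted p = 2.15e-08), which bind let-7 precursors; LIN28B had 12.8, 13.1 and 14.2 CPM at E9.5, against 69.5, 61.8 and 63.6 CPM at E5. Whether there were more germ cells or more of these transcripts in each was not tested. In the 3 right libraries alike in mesonephros level, 14 members were called higher.

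Meiosis genes were raised in part. Of 18 tested, 9 were higher and none lower (50% called, against 37.5% of all genes), with a median of 0.66. A further 3 genes of the list, MEI4, MEIOB and TERB2, were under the count filter. STRA8, the retinoic acid target that opens meiosis, had 3.55, 2.3 and 3.79 CPM at E9.5, against 0.323, 0.296 and 0.131 CPM at E5 (log2 fold change 3.63 ± 0.44, adjusted p = 1.69e-06). SMC1B, a meiotic cohesin subunit, had 12.99, 19.4 and 19.9 CPM at E9.5, against 0.453, 1.18 and 0.919 CPM at E5 (log2 fold change 4.33 ± 0.38, adjusted p = 2.25e-08). SYCP3, of the synaptonemal complex, had 7.99, 6.89 and 8.23 CPM at E9.5, against 3.36, 2.43 and 2.43 CPM at E5 (log2 fold change 1.49 ± 0.22, adjusted p = 2.01e-05). In each of these 3 genes all E9.5 libraries exceeded all E5 libraries. Over the list 10 of 18 genes had no overlap, beside 43.2% of all genes. The double-strand break enzyme SPO11 rose with 1.91 (adjusted p = 0.00114) and HORMAD2 with 1.99 (adjusted p = 6.05e-06). The recombinase DMC1 rose with 2.08 (adjusted p = 0.00602), and had 1.53 (adjusted p = 0.0538) with the red blood cell score as a covariate. SYCP1 at 0.29 (adjusted p = 0.649) and MSH4 at -0.05 (adjusted p = 0.835) were not called.

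Retinoic acid genes moved both ways, falls more often than rises. Of 18 tested, 3 were higher and 7 lower (55.6% called, against 37.5% of all genes), with a median of -0.20. ALDH1A2, the main synthesising enzyme, had 611, 536 and 463 CPM at E9.5, against 956, 1413 and 1281 CPM at E5 (log2 fold change -1.18 ± 0.16, adjusted p = 7.66e-06), and ALDH1A3 fell with -1.25 (adjusted p = 6.22e-06). The cellular binding proteins CRABP1 and CRABP2 fell with -1.88 (adjusted p = 0.00025) and -1.82 (adjusted p = 3.19e-07). The degrading enzymes parted: CYP26A1 fell to 7.58 ± 2.4 CPM at E9.5, against 30.8 ± 0.508 CPM at E5 (log2 fold change -2.03, adjusted p = 6.74e-06), after a mean of 87.5 ± 20.3 CPM at E6.5, while CYP26B1 had 21.5, 18.4 and 25.4 CPM at E9.5, against 6.98, 12.5 and 18.4 CPM at E5 (log2 fold change 0.79 ± 0.24, adjusted p = 0.0145). The CYP26B1 call was lost without E5 right replicate 1, 0.43 (adjusted p = 0.131), E5 right replicate 2, 0.74 (adjusted p = 0.0569), or E9.5 right replicate 3, 0.64 (adjusted p = 0.0765). It was also lost in the fit on the 6 libraries compared. RBP7, a retinol-binding protein, rose with 4.36 (adjusted p = 7.88e-05), and STRA6, a retinol transporter, with 1.62 (adjusted p = 1.78e-06).

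Of 17 surface epithelium genes tested, 3 were higher and 4 lower (41.2% called, near the 37.5% of all genes), with a median of -0.19. BNC1, an epithelial zinc finger factor, had 107, 67.5 and 59.9 CPM at E9.5, against 276, 308 and 293 CPM at E5 (log2 fold change -1.91 ± 0.17, adjusted p = 2.45e-08). KRT7, a simple epithelial keratin, had 229.6, 202 and 167 CPM at E9.5, against 609, 615 and 624 CPM at E5 (log2 fold change -1.63 ± 0.15, adjusted p = 5.51e-08). Both were lower in each E9.5 library than in any E5 library, but they were named for the size of their change. Over the list 10 of 17 genes had no overlap, beside 43.2% of all genes. DSP, the desmosomal protein desmoplakin, rose to 1067 ± 219 CPM at E9.5, against 392 ± 51.5 CPM at E5 (log2 fold change 1.44, adjusted p = 7.15e-06), and KRT19 rose with 0.97 (adjusted p = 5.53e-05). EPCAM at 0.07 (adjusted p = 0.903) and MSLN at -0.38 (adjusted p = 0.11) were not called.

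In the stroma list, 6 of 30 tested genes were higher and 11 lower, with a median of -0.31. Called were 56.7%, against 37.5% of all genes (21.5% higher and 16.1% lower). The proteoglycan VCAN had 256, 134 and 130.4 CPM at E9.5, against 1059, 599 and 964 CPM at E5 (log2 fold change -2.33 ± 0.23, adjusted p = 1.12e-07). The matrix proteins FN1 and COL5A1 fell with -1.43 (adjusted p = 0.000695) and -1.43 (adjusted p = 2.56e-05), and the smooth muscle protein TAGLN with -2.52 (adjusted p = 4.88e-05). COL14A1, a fibril-associated collagen, went the other way with 270.2, 201 and 203 CPM at E9.5, against 24.4, 15.7 and 18.5 CPM at E5 (log2 fold change 3.53 ± 0.18, adjusted p = 1.87e-11). The small proteoglycan OGN rose with 2.61 (adjusted p = 7.31e-08) and the elastic fibre protein FBLN5 with 2.17 (adjusted p = 1.81e-08). TCF21, a factor of gonadal interstitial cells, was not called (log2 fold change -0.35, adjusted p = 0.126), nor was COL1A1 (log2 fold change -0.80, adjusted p = 0.085). Calls appeared for COL1A1 without E5 right replicate 2 or E9.5 right replicate 3 (adjusted p = 0.0285 to 0.0314), and for TCF21 with the red blood cell score as a covariate, -0.63 (adjusted p = 0.00194).

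HOX genes, which pattern the body axis, mostly fell. Of 31 tested HOX genes, 20 were lower and 1, HOXB2, was higher (log2 fold change 0.86, adjusted p = 0.00251), with a median log2 change of -1.01 and 67.7% called; the share of all genes called lower was 16.1%. The sum over 36 HOX genes was 490.3, 585 and 496 CPM in the E9.5 right libraries, against 959, 866 and 952 CPM in the E5 right libraries. HOXA4 fell to 22.8 ± 4.11 CPM at E9.5, against 64.6 ± 8.15 CPM at E5 (log2 fold change -1.50, adjusted p = 6.62e-08), HOXC5 fell with -1.62 (adjusted p = 0.000207) and HOXB9 with -1.30 (adjusted p = 0.00266). None of the 6 tested HOXD genes was called. Without any 1 right library 19 to 22 HOX genes were lower, and in the 3 right libraries alike in mesonephros level 13 were.

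In BMP, activin and TGF-beta signalling, 10 of 44 tested members were higher and 19 lower, with a median of -0.31. The share called was 65.9%, against 37.5% of all genes. The secreted BMP modulators BMPER and GREM1 fell: BMPER had 24.9, 24.5 and 20.3 CPM at E9.5, against 317, 158 and 233 CPM at E5 (log2 fold change -3.34 ± 0.26, adjusted p = 4.25e-09), and GREM1 had 2.35, 2.61 and 4.77 CPM at E9.5, against 28.6, 26.1 and 42.7 CPM at E5 (log2 fold change -3.33 ± 0.37, adjusted p = 6.45e-07). The activin receptor ACVR2B fell to 3.68 ± 0.25 CPM at E9.5, against 22.9 ± 2.32 CPM at E5 (log2 fold change -2.63, adjusted p = 1.17e-10), and the ligand TGFB2 with -2.38 (adjusted p = 1.85e-08). The inhibitory SMAD7 rose (log2 fold change 2.42, adjusted p = 1.47e-06), as did the subunits INHA, INHBB and INHBA given above. The receptor BMPR1B rose with 1.99 (adjusted p = 1.85e-07). BMP7 averaged 41.9 ± 9.55 CPM in E9.5 right gonads and 35.1 ± 4.45 CPM in E5 right gonads and was not called (log2 fold change 0.26, adjusted p = 0.115). It was called once the mesonephros score entered the fit, 0.37 (adjusted p = 0.0438). So was it without E9.5 right replicate 2, 0.33 (adjusted p = 0.0408).

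Of 36 tested WNT pathway genes, 10 were higher and 11 lower (58.3% called, against 37.5% of all genes), with a median of -0.15. The ligand WNT16 had 80.4, 65.1 and 102 CPM at E9.5, against 7.18, 15.5 and 18.8 CPM at E5 (log2 fold change 2.58 ± 0.31, adjusted p = 1.47e-06), and the secreted proteins DKK3 and DKK1, of a family of WNT inhibitors, rose with 2.11 (adjusted p = 1.23e-09) and 1.60 (adjusted p = 2.57e-06). RSPO3, a WNT enhancer, fell with -1.60 (adjusted p = 2.34e-05), the ligand WNT2B with -1.38 (adjusted p = 0.0191) and the receptor FZD7 with -1.07 (adjusted p = 0.0016). The feedback targets AXIN2 and NKD1 rose with 0.52 (adjusted p = 0.0418) and 1.27 (adjusted p = 1.07e-06). AXIN2 kept its call in only 7 of 19 alternatives. Upper-quartile scaling, both other filters and the fits on the 6 libraries compared and on the 12 right libraries were among those that lost it. In the hedgehog and PDGF list 8 of 19 were higher and 3 lower (57.9% called, against 37.5% of all genes). PDGFC and PDGFB rose with 1.36 (adjusted p = 6.32e-08) and 1.48 (adjusted p = 2.31e-05), and the receptor PDGFRA fell with -0.91 (adjusted p = 2.38e-05). Calls were lost for AXIN2 without E5 right replicates 1 or 2 or E9.5 right replicates 2 or 3 (adjusted p = 0.0893 to 0.386) and WNT2B without E5 right replicate 3 or E9.5 right replicates 2 or 3 (adjusted p = 0.0569 to 0.0769), and for AXIN2 also with RLE scaling, 0.48 (adjusted p = 0.0609). The count of 8 was 4 without E5 right replicate 1, 4 without E5 right replicate 2 and 4 without E9.5 right replicate 3, and the count of 3 lower was 5 without E9.5 right replicate 3. In the FGF list 6 of 23 were higher and 7 lower (56.5% called, against 37.5% of all genes). The receptor FGFR3 rose to 240.5 ± 50.3 CPM at E9.5, against 72.3 ± 11.6 CPM at E5 (log2 fold change 1.73, adjusted p = 6.2e-08). The ligand FGF10 rose with 1.84 (adjusted p = 2.92e-06), and the inhibitor IL17RD fell with -1.52 (adjusted p = 6.1e-08). In the Notch list 5 of 17 were higher and 1 lower, the ligand JAG1 at -0.96 (adjusted p = 0.00156) (35.3% called, near the share over all genes); without 1 of 4 right libraries (E5 replicates 1 and 2, E9.5 replicates 2 and 3) 2 to 4 members were lower.

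Guidance genes, first known from growing axons, fell more often than they rose, 16 lower and 7 higher of 40 tested, with a median of -0.35. Called were 57.5%, against 37.5% of all genes. The ligand SLIT2 had 66.04, 67.5 and 58.6 CPM at E9.5, against 261, 219 and 329 CPM at E5 (log2 fold change -2.07 ± 0.13, adjusted p = 3.4e-10). SEMA3D had 33.5, 22.2 and 22.5 CPM at E9.5, against 202, 159.7 and 224 CPM at E5 (log2 fold change -2.90 ± 0.20, adjusted p = 8.08e-10). The ephrin receptors EPHA4 and EPHA7 fell with -2.49 (adjusted p = 3.05e-10) and -2.16 (adjusted p = 8.92e-09). In all 4 genes every E9.5 library lay below every E5 library, but they were named for the size of their change. Over the list 19 of 40 genes had no overlap, near the 43.2% of all genes. NTN4, a netrin, rose with 1.67 (adjusted p = 0.021) and the ephrin EFNB2 with 1.06 (adjusted p = 4.42e-06). The count of 7 higher was 4 without E5 right replicate 1. The NTN4 call was lost with the mesonephros score in the fit, 1.04 (adjusted p = 0.249), by limma-voom, 1.45 (adjusted p = 0.0673), and for NTN4 without E5 right replicates 1 or 2 or E9.5 right replicate 2 (adjusted p = 0.0553 to 0.52).

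Because the right gonad regresses, lists of proliferation, arrest, death and degradation are given together. Of 35 mitosis and replication genes, 6 were higher and 9 lower (42.9% called, near the 37.5% of all genes), with a median of -0.15. Their summed levels were 5411, 5261 and 5552 CPM in the E9.5 right libraries, against 5696, 5854 and 5784 CPM in the E5 right libraries. CCNB2, a mitotic cyclin, rose to 469.9 ± 54.7 CPM at E9.5, against 253 ± 45.4 CPM at E5 (log2 fold change 0.89, adjusted p = 0.000272), and CCND1 had 102, 81.7 and 80.1 CPM at E9.5, against 57.6, 62.4 and 52.1 CPM at E5 (log2 fold change 0.61 ± 0.11, adjusted p = 0.000213). TOP2A, a topoisomerase of dividing cells, had 239, 258 and 406 CPM at E9.5, against 488, 389.9 and 592 CPM at E5 (log2 fold change -0.70 ± 0.18, adjusted p = 0.00474); its groups overlapped, and it had -0.52 (adjusted p = 0.0552) with the mesonephros score as a covariate. MKI67 (log2 fold change -0.15, adjusted p = 0.467) and PCNA (log2 fold change -0.30, adjusted p = 0.0783) were not called, but PCNA was called lower by DESeq2, -0.33 (adjusted p = 0.0397), and for PCNA without E5 right replicate 3 or E9.5 right replicate 2 (adjusted p = 0.0072 to 0.0355). The 6 higher members were 3 without E5 right replicate 1 and 3 without E5 right replicate 3. Fitted on the 6 libraries compared, with no other group to estimate the spread, the test called 2 of the 35 lower, beside the 9.

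Of 17 tested genes in the list of cell cycle inhibitors and growth arrest, 8 were higher and 3 lower, with a median of 0.17. Called were 64.7%, against 37.5% of all genes. Without E5 right replicate 1, 5 were higher, and 5 without E9.5 right replicate 2, and 1 was lower without E9.5 right replicate 3. BTG1 rose with 0.70 (adjusted p = 0.000769), and MDM2, which is in the list but is no inhibitor itself, with 0.68 (adjusted p = 0.000206). CDKN1C fell with -0.62 (adjusted p = 0.00586). CDKN1A (p21) had 1.08, 2.71 and 0.98 CPM at E9.5, against 0.194, 0.77 and 0.459 CPM at E5 (log2 fold change 1.73 ± 0.54, adjusted p = 0.0154), and its call was lost without E5 right replicate 1, 1.32 (adjusted p = 0.0892), E5 right replicate 3, 1.67 (adjusted p = 0.0544), or E9.5 right replicate 2, 1.03 (adjusted p = 0.18). It was also lost in the fits on the 6 libraries compared and on the 12 right libraries, and with the mesonephros or the red blood cell score as a covariate. In the cell death list only 8 of 32 tested members were called (25.0%, under the 37.5% of all genes), 3 higher and 5 lower, and the median was 0.00; the 5 lower were 1 in the fit on the 6 libraries compared. TNFSF10, the death ligand TRAIL, had 160.0, 159 and 168 CPM at E9.5, against 63.1, 77.03 and 67.6 CPM at E5 (log2 fold change 1.23 ± 0.09, adjusted p = 2.05e-09). The survival gene BCL2L1 rose with 0.68 (adjusted p = 7.39e-05). The pro-death gene BMF had 86.3, 67.5 and 70.98 CPM at E9.5, against 283, 243 and 260.1 CPM at E5 (log2 fold change -1.81 ± 0.13, adjusted p = 2.48e-09). The death receptor FAS was not called (log2 fold change 0.61, adjusted p = 0.0919), nor were BCL2 (log2 fold change 0.34, adjusted p = 0.178) and APAF1 (log2 fold change -0.30, adjusted p = 0.0678). APAF1 stayed uncalled in 8 of 19 alternatives and was called lower in the others. It was called lower by DESeq2, -0.33 (adjusted p = 0.0282), and without E5 right replicates 2 or 3 or E9.5 right replicates 1 or 2 (adjusted p = 0.0297 to 0.0488). RLE and upper-quartile scaling, the stricter filter and either tissue score as a covariate also called it lower. So did the fit without E6.5 left replicate 3 and E8 right replicate 3.

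Lysosome genes rose more often, 11 higher and 1 lower of 23 tested (52.2% called, against 37.5% of all genes), with a median of 0.29. NPC1, which exports cholesterol from lysosomes, had 354, 237 and 349 CPM at E9.5, against 89.9, 109 and 110.4 CPM at E5 (log2 fold change 1.60 ± 0.14, adjusted p = 3.63e-08). CTSZ, a cathepsin, had 148, 456 and 264 CPM at E9.5, against 92.8, 88.1 and 66.01 CPM at E5 (log2 fold change 1.82 ± 0.43, adjusted p = 0.0024) in the order of the mesonephros sums, and 0.71 (adjusted p = 0.413) with the 3 right libraries alike in that sum, where 4 members of the list were higher. Interferon-stimulated genes rose, 12 of 19 tested and none lower (63.2% called, against 37.5% of all genes), with a median of 0.76. The 12 were 7 in the fit on the 6 libraries compared. PARP14 had 184, 137 and 152 CPM at E9.5, against 12.9, 15.3 and 12.7 CPM at E5 (log2 fold change 3.53 ± 0.20, adjusted p = 7.36e-11), B2M, the light chain of MHC class I, had 104, 116 and 135 CPM at E9.5, against 34.9, 33.8 and 39.6 CPM at E5 (log2 fold change 1.71 ± 0.13, adjusted p = 3.93e-09), and MX1 rose with 2.74 (adjusted p = 4.2e-05). Of 25 hypoxia and glycolysis genes, 9 were higher and 7 lower (64% called, against 37.5% of all genes). EGLN3 and BNIP3 rose with 1.90 (adjusted p = 7.64e-07) and 1.17 (adjusted p = 2.09e-08), and the glucose transporter SLC2A1 fell with -0.68 (adjusted p = 0.0206). The 7 lower were 4 without E5 right replicate 3, and the call was lost for SLC2A1 without E5 right replicate 3 or E9.5 right replicate 1 (adjusted p = 0.0577 to 0.115). In the immediate early list 2 of 18 were higher and 5 lower (38.9% called, near the 37.5% of all genes). The count of 5 was 2 without E5 right replicate 1 and 3 without E9.5 right replicate 2. ATF3 had 9.19, 13.8 and 6.93 CPM at E9.5, against 61.6, 64.1 and 58.7 CPM at E5 (log2 fold change -2.62 ± 0.22, adjusted p = 1.81e-08).

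Embryonic globins of blood fell while other globins rose. HBZ, an embryonic alpha-type globin, had 19.3, 23.1 and 15.8 CPM at E9.5, against 3006, 2176 and 1046 CPM at E5 (log2 fold change -6.74 ± 0.61, adjusted p = 4.27e-08). The embryonic beta-type globins HBBR and HBE fell with -4.71 (adjusted p = 4.24e-07) and -3.86 (adjusted p = 2.7e-06). HBBA, the adult beta globin, had 2783, 1886 and 1968 CPM at E9.5, against 27.2, 35.8 and 9.97 CPM at E5 (log2 fold change 6.5 ± 0.50, adjusted p = 4.35e-09), and HBE1, a further beta-type globin of the table, 412, 229 and 271 CPM at E9.5, against 2.26, 2.66 and 2.03 CPM at E5 (log2 fold change 7.03 ± 0.48, adjusted p = 7.48e-10). HBA1 and HBM, both alpha-type, rose less, with 1.21 (adjusted p = 0.0271) and 1.09 (adjusted p = 0.0426). These rises were called no more for HBA1 without E5 right replicates 2 or 3 or E9.5 right replicate 1 (adjusted p = 0.0654 to 0.146) and HBM without E5 right replicates 2 or 3 or E9.5 right replicates 1, 2 or 3 (adjusted p = 0.056 to 0.209). Over the 15 red blood cell genes, 7 were higher and 3 lower (66.7% called, against 37.5% of all genes). Their sum was 7493, 5328 and 5486 CPM in the E9.5 right libraries, against 8717, 6395 and 3261 CPM in the E5 right libraries. The summed levels of the stages thus overlapped while single globins differed by far. Reads of near-identical globin copies may have been shared or lost in counting, so levels of single globins are uncertain.

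**Figure D3:**
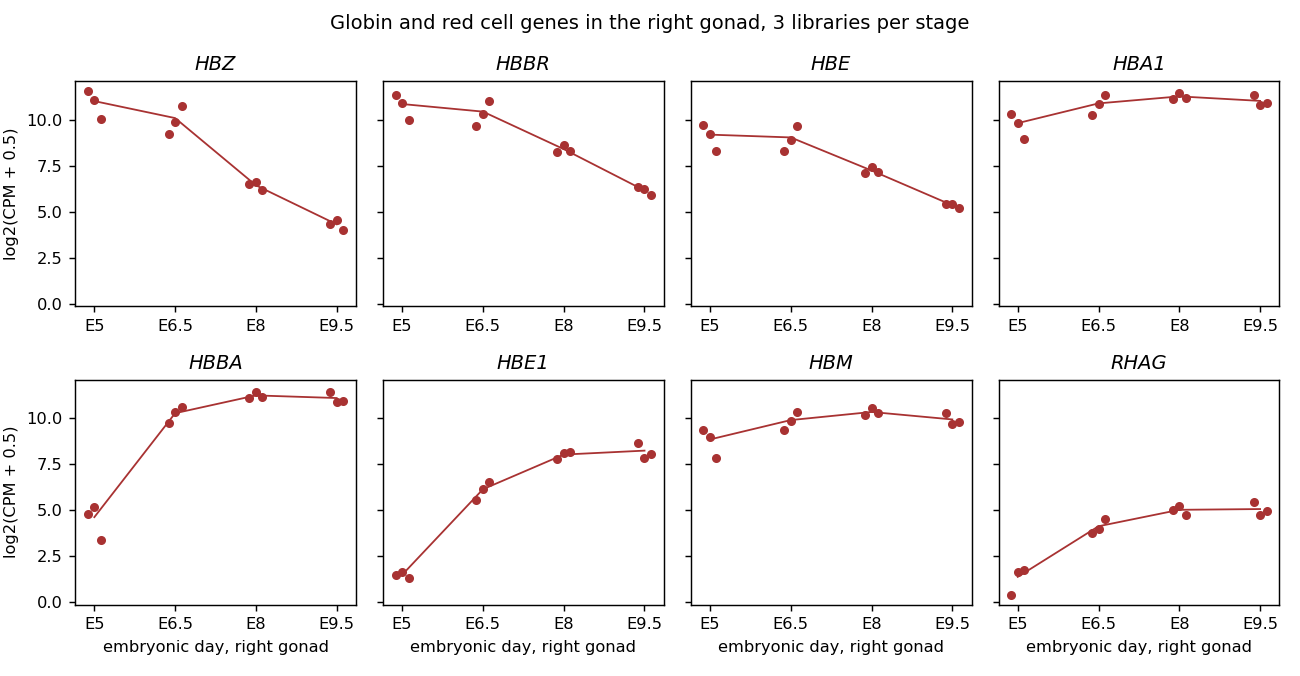
Levels of 7 globin genes and of RHAG, a red cell membrane gene, in the right gonad at E5, E6.5, E8 and E9.5, as log2(CPM + 0.5), with a point per library and a line through the means of 3 libraries. On this log2 scale HBZ, HBBR and HBE fall mainly after E6.5, while HBBA and HBE1 cover most of their difference by E6.5.

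Genes of the mesonephros were higher at E9.5 in part and scattered widely. Of 22 tested, 7 were higher and 1 lower (36.4% called, near the 37.5% of all genes), with a median log2 change of 1.80. Of all genes 21.5% were called higher and 16.1% lower. SLC12A1, a kidney salt transporter, had 59.8, 607 and 91.4 CPM at E9.5, against 12.5, 0.71 and 0.394 CPM at E5 (log2 fold change 5.81 ± 1.87, adjusted p = 0.0187). It was called no more without E9.5 right replicate 2, 4.01 (adjusted p = 0.0978), E5 right replicate 2, 5.27 (adjusted p = 0.0687), or E5 right replicate 3, 5.25 (adjusted p = 0.0726). PAX2, a kidney and duct factor, fell with -1.06 (adjusted p = 0.000866). The count of 7 higher was 4 without E5 right replicate 2, 2 without E5 right replicate 3 and 3 without E9.5 right replicate 2. Among the E9.5 libraries, liver genes took the order of the mesonephros sums. They summed to 1115, 3330.4 and 2346 CPM in the E9.5 right libraries, against 717, 711 and 649.8 CPM in the E5 right libraries. Of 22 tested, 6 were higher and none lower, with a median of 1.87. The 27.3% called, all rises, stood beside 21.5% of all genes called higher and 37.5% called either way. TTR, transthyretin, had 8.37, 75.1 and 53.3 CPM at E9.5, against 1.68, 1.12 and 0.722 CPM at E5 (log2 fold change 5.27 ± 1.18, adjusted p = 0.00151), and 2.57 (adjusted p = 0.259) with the 3 right libraries alike in mesonephros level, where no liver gene was called. Without E6.5 left replicate 3 and E8 right replicate 3, left out together, 12 liver genes were higher. What these transcripts come from was not tested.

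**Figure D4:**
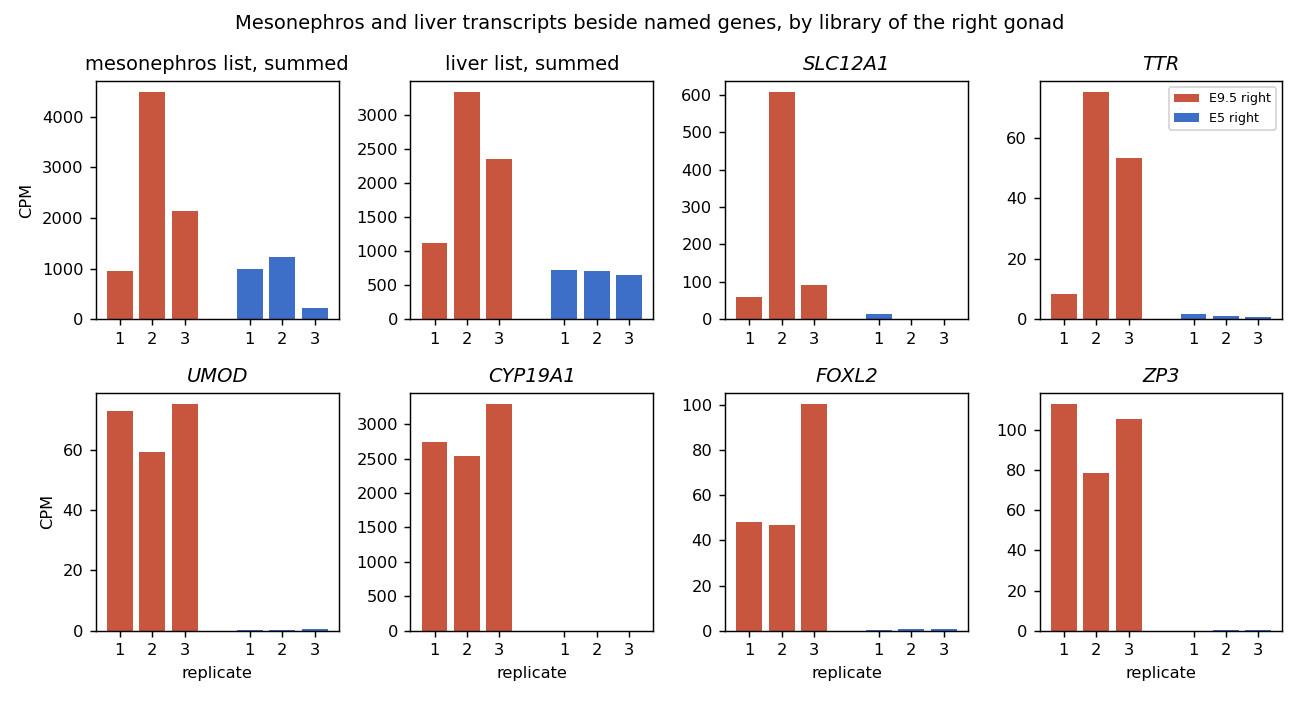
Summed CPM of the mesonephros and liver lists and CPM of 6 genes in each of the 3 E9.5 right libraries and the 3 E5 right libraries. SLC12A1 and TTR are highest in E9.5 replicate 2, as both sums are, while UMOD, CYP19A1, FOXL2 and ZP3 are not.

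Other cell types are given by their lists, beside the 37.5% of all genes called. Called were 33.3% of the chromaffin, 40% of the adrenal cortex, 47.4% of the macrophage, 15.4% of the heterophil and 54.5% of the endothelial genes. Chromaffin and adrenal cortex genes were thus near the share over all genes and heterophil genes under it. Of 12 tested chromaffin genes 1 was higher and 3 lower; SLC18A2, the vesicular amine transporter, had 3.11, 2.14 and 1.7 CPM at E9.5, against 15.5, 28.00 and 21.3 CPM at E5 (log2 fold change -3.22 ± 0.36, adjusted p = 6.22e-07), and 1 was lower without E9.5 right replicate 1 and 1 without E9.5 right replicate 2. Of 5 adrenal cortex genes 2 were lower, the angiotensin receptor AGTR1 at -1.52 (adjusted p = 1.33e-05) and the ACTH receptor MC2R at -2.92 (adjusted p = 0.00575); MC2R was -1.58 (adjusted p = 0.32) with the 3 right libraries alike in mesonephros level. Of 19 macrophage genes 3 were higher and 6 lower, with a median of -0.42. Among the lower were TLR4 at -0.93 (adjusted p = 0.000538), TLR2A at -0.87 (adjusted p = 0.0146), CTSS at -0.68 (adjusted p = 0.000998) and SPI1 at -0.67 (adjusted p = 0.0258). TLR2A and SPI1 lost their calls without E5 right replicate 2 or E9.5 right replicate 3. CD36, a scavenger receptor, went against the median and rose to 45.5 ± 14.5 CPM at E9.5, against 9.93 ± 2.18 CPM at E5 (log2 fold change 2.20, adjusted p = 2.92e-07). The 6 lower were 3 without E5 right replicate 2 and 2 without E9.5 right replicate 3. The 3 higher macrophage genes were 1 without E5 right replicate 1, E5 right replicate 3, E9.5 right replicate 1 or E9.5 right replicate 2. Of 13 heterophil genes 2 were higher, the protease CTSG and SERPINB10B at 3.20 (adjusted p = 0.000654). CTSG had 2 counts over the E5 group, a ratio of 37.4 with an interval of 10.02 to 314. Of 22 endothelial genes 7 were higher and 5 lower; LYVE1, of lymphatic and early vessels, fell with -1.79 (adjusted p = 3.87e-05) and the receptor TEK with -1.29 (adjusted p = 1.72e-06), while SOX7 rose with 1.24 (adjusted p = 0.000141). Endothelial rises numbered 4 without E5 right replicate 1 and 4 without E9.5 right replicate 3, and falls 8 without E5 right replicate 1.

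Of 17 muscle genes 1 was higher, desmin (DES) at 1.10 (adjusted p = 5.41e-07), and 4 were lower (29.4% called, under the 37.5% of all genes). Among the lower was the myosin light chain MYL4, with 32.1, 28.8 and 22.7 CPM at E9.5, against 114, 93.96 and 102 CPM at E5 (log2 fold change -1.89 ± 0.17, adjusted p = 5.1e-08). Of 9 Müllerian duct genes 1 was higher and 3 lower (44.4% called, against 37.5% of all genes). Without E5 right replicate 1, 2 were higher. KRT14 rose with 1.29 (adjusted p = 0.000191), the homeobox gene MSX2 fell with -2.72 (adjusted p = 0.00225), -2.31 (adjusted p = 0.137) with the 3 right libraries alike in mesonephros level, and PAX2 and EMX2 are named above. Of 17 neuron and glia genes 2 were higher and 2 lower (23.5% called, against 37.5% of all genes), with FABP7, a fatty acid binding protein of glia, at 1.03 (adjusted p = 0.00565) and the factor ISL1 at -2.68 (adjusted p = 0.00626). With the mesonephros score in the fit FABP7 had 0.50 (adjusted p = 0.0802), and ISL1 had -2.15 (adjusted p = 0.236) with the 3 right libraries alike in that level. The 2 lower were 5 in the fit on the 6 libraries compared and 4 in the fit on the 12 right libraries. These counts changed with single libraries too: 1 was higher without E5 right replicate 1, E5 right replicate 2, E9.5 right replicate 2 or E9.5 right replicate 3, and 1 was lower without E5 right replicate 1, E5 right replicate 3, E9.5 right replicate 1 or E9.5 right replicate 2.

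Counts of several lists moved by more than 1.5 times, mostly downward, in the fit that kept E9.5 right replicate 1 and E5 right replicates 1 and 2. Mitosis then had 3 members higher and 4 lower, cell cycle inhibitors 3 and 0, hedgehog and PDGF genes 2 and 2, hypoxia and glycolysis genes 4 and 2, and endothelial genes 1 and 3. Testis genes had 3 lower, Notch genes 1 higher, mesonephros genes 1 higher and 2 lower, and muscle genes 2 lower. Adrenal cortex and chromaffin genes had 1 lower each, and no macrophage gene was lower, no heterophil gene higher and no neuron or glia gene called. In the fit on the 6 libraries compared, which has fewer samples to estimate the spread, counts moved that far for further lists. Cell cycle inhibitors had 5 higher and 1 lower, WNT genes 6 higher, hedgehog and PDGF genes 3 higher, guidance genes 4 higher, hypoxia and glycolysis genes 4 lower, immediate early genes 2 lower and macrophage genes 1 higher and 2 lower. More were called there among chromaffin genes, with 5 lower, liver genes, with 10 higher, and muscle genes, with 2 higher. With the 12 right libraries alone, 6 chromaffin genes were lower, 1 macrophage gene was higher and 2 muscle genes were higher. With the mesonephros score as a covariate in all libraries, 5 mitosis genes were lower, and 4 immediate early genes were higher and 3 lower. Higher in that fit were 4 endothelial genes, 2 liver genes and 1 macrophage gene, and 1 chromaffin gene was lower. Of neuron and glia genes 1 was higher and 1 lower. Mesonephros genes had 3 higher and 8 lower. The score is the mean of these same genes, so their counts in this fit do not measure their change. Named genes that were called no more in those 3 right libraries, beside the ones given above, were AMHR2, AXIN2, BCL2L1, BTG1, CDKN1A, CDKN1C, CTSG, DMRT1, FABP7, FDXR, FN1, HBA1, HBM, HOXC5, HSD17B4, IRX3, LIN28A, NTN4, RASD2, SERPINB10B, SLC12A1, SLC2A1, SOX8 and WNT2B (adjusted p = 0.0632 to 0.637).

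Most of the way from E5 to E9.5 had been covered by E8. For the 1776 called rises of at least 2-fold, the mean at E6.5 stood at a median of 50.1% of the log2 difference and the mean at E8 at 83%. For the 869 falls of that size the medians were 56.4% and 87%. By E6.5, 890 of these rises (50.1%) and 503 of these falls (57.9%) had passed 50% of their difference. GRP came late, with 0.0434 CPM at E5, 0.063 CPM at E6.5, 7.14 CPM at E8 and 28.6 CPM at E9.5, and ZP3 had its rise between E6.5 and E8, with 0.289 CPM at E5, 2.9 CPM at E6.5, 121 CPM at E8 and 98.8 CPM at E9.5. HAND1 left early, with 26.4 CPM at E5, 2.32 CPM at E6.5, 0.993 CPM at E8 and 0.34 CPM at E9.5. These genes were chosen for their change between the end points, so the positions in between are a description.

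The left gonad changed in a similar number of genes, and the sides share no library. There 5703 genes were called (34.2%). Of the 6267 right calls, 3946 were called the same way in the left gonad, which is 63% of the right and 69.2% of the left calls, and 49 were called in opposite directions. The difference of the 2 changes, right minus left, was itself tested and passed for 368 genes (2.2%), 223 more positive in the right gonad and 145 more negative. Same-numbered right and left libraries deviated together at E9.5 and at E5, and a fit with these pairs as a replicate block, chosen after that was seen, called 534 genes, 300 more positive and 234 more negative, of which 361 were among the 368. Aromatase rose in both, with log2 changes of 12.33 in the right and 11.69 in the left gonad, and the difference of 0.64 ± 0.80 (adjusted p = 0.782) was not called. Neither was that of FOXL2, at -0.08 ± 0.57 (adjusted p = 0.969), nor that of any other steroid synthesis, receptor, ovarian, testis, meiosis or mitosis gene. With the block 1 of these, PLK1, a kinase of mitosis, was called, at -0.53 ± 0.13 (adjusted p = 0.0401, beside 0.155 without it). A lack of calls in single genes does not show that the sides changed alike. Of 35 mitosis genes, 10 were higher and 0 lower in the left gonad (median 0.15), beside 6 and 9 in the right (median -0.15). They summed to 7542, 7173 and 6543 CPM in the E9.5 left libraries, against 6372, 6694 and 6285 CPM in the E5 left libraries.

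Without E5 right replicate 3 the difference was called for 245 genes, 141 of them more positive in the right gonad. The positive ones numbered 128 without E5 left replicate 2, 136 without E9.5 left replicate 1 and 145 without E9.5 left replicate 2. DESeq2 called 679 genes, 389 positive and 290 negative, and the fit with the 3 right libraries alike in mesonephros level called 238, with 77 negative.

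**Figure D5:**
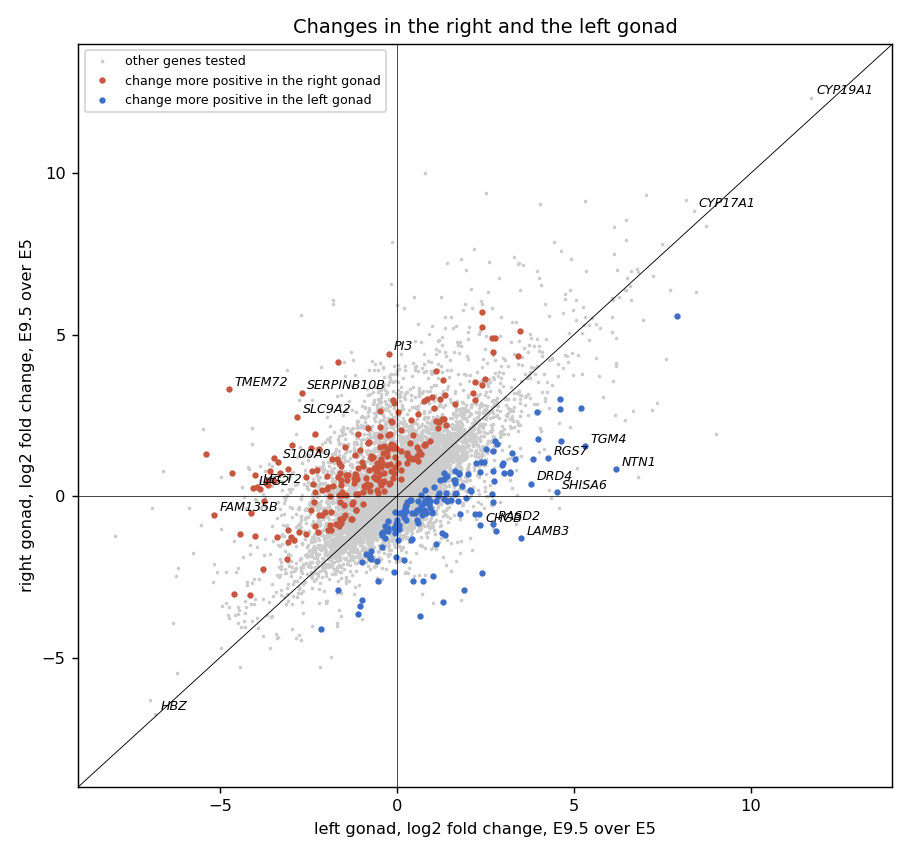
Log2 fold change of E9.5 over E5 in the right gonad (vertical axis) against the left gonad (horizontal axis) for all genes tested; coloured points are the 368 genes whose changes differ, and the diagonal marks equal changes. CYP19A1, CYP17A1 and HBZ lie near the diagonal, NTN1, TGM4 and SHISA6 far below it and TMEM72 and SERPINB10B far above.

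Among genes with a symbol and a mean of at least 2 CPM in 1 of the 4 groups, the 8 most negative called differences were in genes whose log2 change was positive in the left gonad and smaller or negative in the right. NTN1, the guidance cue netrin 1, had 1.14, 5.53 and 1.9 CPM in the E9.5 right libraries, against 1.16, 1.42 and 2.36 CPM in the E5 right libraries, and 79.4, 79.2 and 84.3 CPM in the E9.5 left libraries, against 0.724, 0.886 and 1.72 CPM in the E5 left libraries; the difference of changes was -5.36 ± 0.81 (adjusted p = 0.00103). SHISA6, a membrane protein of synapses, had 0.951, 1.72 and 1.63 CPM at E9.5, against 0.711, 1.95 and 1.31 CPM at E5 in the right gonad, and 13.7, 14.7 and 15.02 CPM in the E9.5 left libraries, against 0.543, 0.633 and 0.699 CPM in the E5 left libraries; the difference was -4.41 ± 0.48 (adjusted p = 2.96e-05). TGM4, a transglutaminase, rose in the right gonad with 1.54 (adjusted p = 0.000286) and in the left with 5.31, a difference of -3.77 ± 0.41 (adjusted p = 2.96e-05). RASD2, a small GTPase, fell in the right gonad, with 14.9, 10.7 and 12.1 CPM at E9.5, against 18.6, 21.8 and 27.95 CPM at E5 (log2 fold change -0.86 ± 0.18, adjusted p = 0.000995), and changed by 2.71 in the left, a difference of -3.57 ± 0.26 (adjusted p = 2.58e-07). RGS7, a regulator of G-protein signalling, differed by -3.09 ± 0.52 (adjusted p = 0.00241), the dopamine receptor DRD4 by -3.41 ± 0.72 (adjusted p = 0.0133), the laminin chain LAMB3 by -4.81 ± 0.94 (adjusted p = 0.00797) and the granule protein CHGB by -3.25 ± 0.68 (adjusted p = 0.0116). CHGB is in the chromaffin list, whose sums were uneven. They were 449, 786 and 1245 CPM in the E9.5 left libraries, against 303, 270 and 242 CPM in the E5 left libraries. In the right gonad they were 242, 330 and 300 CPM at E9.5, against 391, 607 and 396 CPM at E5. The part of chromaffin cells in these differences was not tested. The DRD4 call was lost without E5 right replicate 1, -2.91 (adjusted p = 0.0593), by limma-voom, -3.27 (adjusted p = 0.0535), and with the 3 right libraries alike in mesonephros level, -3.91 (adjusted p = 0.0666).

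Under the same minimum of 2 CPM, the 8 most positive called differences were in genes whose log2 change was negative in the left gonad. TMEM72 had 3.68, 33.7 and 6.8 CPM in the E9.5 right libraries, against 2.13, 1.54 and 0.787 CPM in the E5 right libraries, and 0.358, 0.879 and 0.103 CPM in the E9.5 left libraries, against 13.6, 12.7 and 10.2 CPM in the E5 left libraries; the difference was 8.06 ± 1.35 (adjusted p = 0.00231). SLC9A2, a sodium-proton exchanger, differed by 5.26 ± 0.89 (adjusted p = 0.00241), PI3, a protease inhibitor, by 4.65 ± 0.84 (adjusted p = 0.00403) and FAM135B by 4.57 ± 0.80 (adjusted p = 0.00334). TMEM72, highest in E9.5 replicate 2, had 5.75 (adjusted p = 0.0517) with the 3 right libraries alike in mesonephros level. LYG2, S100A9 and SERPINB10B are in the heterophil list, the granulocytes of birds, and LECT2 encodes a leukocyte chemotactic protein. LECT2, LYG2, S100A9 and SERPINB10B differed by 4.25, 4.30, 4.43 and 5.89 (adjusted p = 0.0353, 0.0264, 0.0042 and 0.00103). Over the heterophil list 8 of 13 genes differed, beside 2.2% of all genes, and 9 with the replicate block, all more positive in the right gonad. The list summed to 58.6, 68.7 and 69.7 CPM in the E9.5 right libraries, against 53.1, 56.2 and 38.4 CPM in the E5 right libraries, while it summed to 13.8, 20.4 and 39.96 CPM in the E9.5 left libraries, against 166, 112 and 335 CPM in the E5 left libraries. The highest sums were those of the left gonad at E5 and the lowest those of the left gonad at E9.5, while the right gonad lay in between at both stages, except that E5 right replicate 3 was below E9.5 left replicate 3. Calls were lost for LECT2 without E5 left replicates 1 or 3, E5 right replicates 1, 2 or 3, E9.5 left replicates 1 or 2 or E9.5 right replicates 1 or 3 (adjusted p = 0.0509 to 0.112) and for LYG2 without E5 left replicate 3, E5 right replicates 1, 2 or 3 or E9.5 left replicates 1 or 2 (adjusted p = 0.0508 to 0.0783). In the fit with the 3 right libraries alike in mesonephros level, calls were lost for LECT2, LYG2, PI3 and S100A9 (adjusted p = 0.0611 to 0.138); PI3 and S100A9 also lost theirs by limma-voom, 4.44 (adjusted p = 0.0514) and 4.06 (adjusted p = 0.0516).

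Germ cell genes differed between the sides in 4 of 32 cases, beside 2.2% of all genes, all more positive in the right gonad. NANOG changed by 1.28 in the right and -1.18 in the left gonad, a difference of 2.47 ± 0.42 (adjusted p = 0.00241). KIT differed by 1.68 ± 0.34 (adjusted p = 0.00885), LIN28A by 2.12 ± 0.43 (adjusted p = 0.00918) and PRDM14, a pluripotency factor of germ cells, by 1.90 ± 0.41 (adjusted p = 0.0158). The list summed to 1119, 1398 and 1250.0 CPM in the E9.5 left libraries, against 743, 942 and 857 CPM in the E5 left libraries, above the right gonad at both stages. Interferon-stimulated genes differed in 4 of 19 cases, beside 2.2% of all genes, all more negative in the right gonad. These were IRF1 by -2.44 ± 0.27 (adjusted p = 4.15e-05), IFIT5 by -2.47 ± 0.41 (adjusted p = 0.00212), MX1 by -2.46 ± 0.60 (adjusted p = 0.0318) and CMPK2 by -1.15 ± 0.29 (adjusted p = 0.0393). B2M was called as well with the replicate block, at -0.65 ± 0.16 (adjusted p = 0.0329, beside 0.0761 without it), and so was the keratin KRT7, at -0.66 ± 0.17 (adjusted p = 0.0495, beside 0.131 without it). The death receptor FAS changed by 0.61 in the right gonad, uncalled, and -1.96 in the left, a difference of 2.57 ± 0.39 (adjusted p = 0.00103). Among other genes described above, the changes of DKK1, COL14A1, NPC1, ACAT2, TNFSF10 and PAX2 were more positive in the right gonad, with differences of 1.70, 1.31, 0.82, 0.70, 0.66 and 2.01 (adjusted p = 0.00188, 0.00459, 0.0318, 0.0356, 0.00607 and 0.00183). Those of ATF3, SLC18A2, OGN, SEMA3D and MC2R were more negative, with -2.07, -2.22, -1.33, -1.23 and -4.82 (adjusted p = 0.000697, 0.0137, 0.0424, 0.015 and 0.0113). PAX2 is in the mesonephros list, SLC18A2 in the chromaffin list and MC2R in the adrenal cortex list. The mesonephros list summed to 339, 597 and 243 CPM in the E9.5 left libraries, against 802, 748 and 234 CPM in the E5 left libraries. In the right gonad its sums were 958, 4485 and 2145 CPM at E9.5, against 994, 1223 and 229 CPM at E5. Whether other tissue had a part in these differences between the sides was not tested. Many of these smaller differences lost their call with 1 library left out, often with any of several libraries. Calls were lost for PRDM14 without E5 right replicates 1 or 3 (adjusted p = 0.0503 to 0.0531), MX1 without E5 left replicates 1 or 3, E5 right replicate 3, E9.5 left replicates 1 or 2 or E9.5 right replicates 2 or 3 (adjusted p = 0.057 to 0.208) and CMPK2 without E5 left replicates 1, 2 or 3, E5 right replicates 1, 2 or 3, E9.5 left replicates 1 or 2 or E9.5 right replicates 1 or 3 (adjusted p = 0.0546 to 0.11). They were also lost for ACAT2 without E5 left replicates 1 or 2, E5 right replicates 1, 2 or 3, E9.5 left replicates 1, 2 or 3 or E9.5 right replicates 2 or 3 (adjusted p = 0.0622 to 0.131), NPC1 without E5 left replicates 2 or 3, E5 right replicates 1, 2 or 3, E9.5 left replicates 1, 2 or 3 or E9.5 right replicates 1 or 3 (adjusted p = 0.0514 to 0.117), OGN without E5 left replicate 3, E5 right replicate 2, E9.5 left replicates 1 or 2 or E9.5 right replicates 2 or 3 (adjusted p = 0.0568 to 0.113) and SEMA3D without E5 left replicate 2, E5 right replicate 3 or E9.5 left replicate 2 (adjusted p = 0.053 to 0.0536). With the 3 right libraries alike in mesonephros level, PRDM14, MX1, CMPK2, ACAT2, TNFSF10, OGN, SEMA3D, SLC18A2 and MC2R (adjusted p = 0.0536 to 0.453) were not called.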

How the data were processed

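Poly(A) RNA of right and left gonads of female chicken embryos had been sequenced, 3 libraries per side and stage. The authors deposited raw read counts per gene. Per the submitters' processing notes, Trim Galore 0.6.7, STAR 2.7.10a and HTSeq 2.0.0 were used with the build GRCg6a; strand and counting mode are not stated there, so overlapping and antisense genes cannot be told apart. The table holds 24154 genes; no coordinates or sequences were used. A few genes that the rules below would name are not reported here.

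Genes were kept by filterByExpr (minimum count 10, minimum total 15), scaled with TMM and fitted with edgeR 4.0.16 (limma 3.58.1, R 4.3.3) as 8 group means over 24 libraries; SE is the log2 change over the square root of F. Pairs of libraries within the right groups had chi-square over its degrees of freedom between 10.3 and 58.1, above counting noise. A 95% counting interval or a floor of 3 counts covers counting error only. The test was checked on counts simulated from its own fitted spread. Those counts held neither uneven tissue content nor pairs of libraries, so the check does not cover these.

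Genes named are the 12 largest changes each way (a symbol, adjusted p under 0.05, at least 2 CPM, no overlap), a panel of 19, members of 35 lists (up to 5 called, or those an account turns on) and the 8 largest differences each way; HOXB2 and other list members (analysed under the same alternatives) were picked for their role or direction after their values were seen. The members and lists were chosen with earlier results of these data known, and lists got counts and medians, with no set test. Alternatives were RLE and upper-quartile scaling, DESeq2 1.42.0, limma-voom, other filters, fewer libraries, a replicate block, tissue scores as covariates and each library left out. By the correlation of deviations from group means, same-numbered libraries of E9.5 right and E5 right were not taken as pairs (-0.267, 0.212 and 0.143), nor were right and left libraries at E8 (-0.0232, 0.129 and 0.0433) or E6.5 (-0.162, 0.532 and 0.12). Low correlations cannot exclude pairs there. Right and left libraries were taken as pairs at E9.5 (0.275, 0.422 and 0.313) and at E5 (0.351, 0.357 and 0.524), by these correlations alone, since the labels do not say what a number shares. A block within these stages was added for the difference between the sides.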

Additional observations from a re-analysis of the deposited data

Results flagged for a closer look

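The change from E5 to E9.5 differed between right and left gonad, by edgeR's test of the difference itself, for 41 of the genes named or held in the germ cell, heterophil and interferon-stimulated lists. Among these are the differences named above for their size, 8 each way, which were chosen because this test called them. The count of 41 is thus no share to set beside the 2.2% of all genes. The values below are log2 changes in the right gonad minus log2 changes in the left. More positive in the right gonad were, among heterophil genes, SERPINB10B 5.89, AvBD6 4.67, S100A9 4.43, LYG2 4.30, AvBD2 4.11, CAMP 4.09, AvBD1 4.09 and CATH1 3.58. AvBD and cathelicidin genes have near-identical copies, so their counts are uncertain. Among germ cell genes the values were NANOG 2.47, LIN28A 2.12, PRDM14 1.90 and KIT 1.68. The other positive values were TMEM72 8.06, SLC9A2 5.26, PI3 4.65, FAM135B 4.57, LECT2 4.25, FAS 2.57, PAX2 2.01, DKK1 1.70, COL14A1 1.31, NPC1 0.82, ACAT2 0.70 and TNFSF10 0.66.

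More negative in the right gonad were, among interferon-stimulated genes, CMPK2 -1.15, IRF1 -2.44, MX1 -2.46 and IFIT5 -2.47. The other negative values were SEMA3D -1.23, OGN -1.33, ATF3 -2.07, SLC18A2 -2.22, RGS7 -3.09, CHGB -3.25, DRD4 -3.41, RASD2 -3.57, TGM4 -3.77, SHISA6 -4.41, LAMB3 -4.81, MC2R -4.82 and NTN1 -5.36. The adjusted p-values of all these genes ran from 2.58e-07 to 0.0424. Groups of 3 libraries were not tested for single outlying samples.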

How the results depend on the processing

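Counts of calls in the right gonad kept within 1.5 times the 6267 (3583 higher, 2684 lower) under all alternatives but 1: with the 3 right libraries alike in mesonephros level, chosen after the data were seen, 3331 genes were called (1948 higher, 1383 lower), with 1 library on the E9.5 side assumed to vary like the other groups. Leaving out each of the 6 right libraries gave 5116 to 6346 calls, 2595 to 3260 higher and 2500 to 3087 lower. Fewer were called in the fit on the 6 libraries compared, with no other group to estimate the spread: 4305 of 15620 genes tested, 2413 higher and 1892 lower. The replicate block gave 6787 calls (3765 higher, 3022 lower) and 445 differences. It joins stages whose same-numbered libraries were not taken as pairs. The replicate block within E5 and within E9.5, whose right and left libraries were taken as pairs, gave 534 differences (300 positive, 234 negative). It changed the call of none of the 37 named differences that were followed under the alternatives. RLE and upper-quartile scaling gave 52.9% and 52.1% of calls higher, beside 57.2%. For the difference between the sides, 368 calls (223 positive, 145 negative) became 679 (389 and 290) with DESeq2, 238 in the fit with the 3 alike libraries (77 negative), and, with each of 12 libraries left out, 245 to 413 (128 to 250 positive, 104 to 194 negative). Without E6.5 left replicate 3 and E8 right replicate 3 it was 415 (241 and 174); the cause was not tested.

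Of 224 named genes called in the right gonad, 149 kept direction and call under every alternative in which they were tested, 19 for most and 17 or 18 for a few that a filter dropped. SPRY4 changed sign to -0.23 in the fit with the 3 alike libraries and was uncalled there. Of the 37 named differences followed, CYP19A1 and FOXL2 uncalled among them and FAS not, 21 kept theirs under all 25. Some calls given above as lost with 1 library left out, such as those of HBM and SLC12A1, were also lost under other alternatives. Depth limits genes under about 1 CPM, where single counts move a fold change.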
